A study of Mus musculus with 4 samples.

Results

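The splicing factor genes described here are the 57 protein-coding mouse genes whose symbols begin with Srsf, Snrp, Hnrnp, Sf3a or Sf3b, together with Srrm1, Srrm2, U2af1 and U2af2. They were taken by symbol from 21887 protein-coding genes, by a rule that uses no peak or score. By family they comprise 13 genes of serine/arginine-rich (SR) and SR-related proteins, 12 Snrp genes, 11 genes of the SF3a and SF3b complexes and U2AF, and 21 Hnrnp genes. Hnrnpa1l2-ps2 was kept because the gene table lists it as protein-coding, although its symbol reads as that of a pseudogene.

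Open chromatin at these genes was read from 4 ATAC-seq peak lists of bone marrow-derived macrophages. ATAC-seq uses the transposase Tn5 to tag accessible DNA, and each library was made from 50000 cells. All macrophages had a C57BL/6 background and were differentiated for 5 days in 10% M-CSF, the growth factor of the macrophage lineage. The WT groups were wild-type and the KO groups carried the genotype Slc6a8-/y, which lacks the X-linked creatine transporter gene, and each genotype was left without treatment or given IL-4 at 10 ng/mL for 6 h. Neither the number and age of the mice nor the construction of the null allele is given in the sources used here. Each group held 1 library, so every difference below is between libraries, with no replicate error to set it against and no test.

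Before a messenger RNA leaves the nucleus its introns are removed by the spliceosome, which is built from small nuclear RNAs and proteins on each intron. The U1 snRNP recognises the start of the intron, U2AF binds its end, and the U2 snRNP with SF3a and SF3b settles on the branch point. SR proteins bind exons and favour the use of nearby splice sites, whereas hnRNP proteins coat the transcript and often oppose it. Both kinds of regulator set alternative splicing, which differs between resting and activated macrophages. The genes are expressed in nearly all cells, and most have a CpG-rich promoter that is open without induction.

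A gene was counted as having an edge peak where any base of a peak lay within 1 kb of either end of its annotated span. WT untreated had the longest list, with 17339 peaks, followed by KO untreated with 13714, KO IL-4 with 10443 and WT IL-4 with fewer still, and the read depth behind them is unknown. The authors' score for each peak ranks peaks only within a list, so scores are given with their percentile, the share of the list's peaks ranked at or below them. A peak found in lists of unlike length has a lower percentile in the shorter one, so percentile differences were computed in lists brought to equal length. For single genes, scores and percentiles with all peaks are also given side by side, and these still carry the difference in list length. No list had a peak within 10 kb of Slc6a8, so the peaks give no check of the genotype labels. Of 12 macrophage markers, 8 had an edge peak in WT untreated, 5 in KO untreated and 3 in each IL-4 list. The macrophage markers Csf1r and Mrc1 had an edge peak in no list. Markers of other cells with an edge peak were S100a8 of 7 neutrophil genes and Ms4a1 of 6 B cell genes (WT untreated alone), Cd3d of 7 T cell genes (every list), and Xcr1 (every list) and Flt3 (KO untreated) of 5 dendritic cell genes. None of 5 erythroid and 6 fibroblast markers had one. The part of other cells in the values below was not tested.

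Promoter sequence of 5 genes is shown because the open region that the results turn on lies there. Srsf2, Srrm1, Srsf3 and Srsf4 had a peak over this sequence in every list but WT IL-4, and Hnrnpc had the highest mean percentile of the genes with an edge peak in all 4 lists. Each line gives the 250 bases before the gene start in RefSeq (GRCm38.p6, the coordinates of mm10), 5′ to 3′ on the gene's strand. Capitals mark the GC box (GGGCGG), the CCAAT box (CCAAT), the ETS-type motif (CCGGAAG) and TGCGCA, the core of the site of NRF1, on either strand.
Srsf2: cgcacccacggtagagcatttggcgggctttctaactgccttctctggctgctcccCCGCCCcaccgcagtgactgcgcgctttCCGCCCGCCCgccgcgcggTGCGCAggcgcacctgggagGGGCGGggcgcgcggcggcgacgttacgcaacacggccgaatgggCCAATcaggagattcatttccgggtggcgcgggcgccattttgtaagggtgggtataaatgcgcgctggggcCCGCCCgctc
Srrm1: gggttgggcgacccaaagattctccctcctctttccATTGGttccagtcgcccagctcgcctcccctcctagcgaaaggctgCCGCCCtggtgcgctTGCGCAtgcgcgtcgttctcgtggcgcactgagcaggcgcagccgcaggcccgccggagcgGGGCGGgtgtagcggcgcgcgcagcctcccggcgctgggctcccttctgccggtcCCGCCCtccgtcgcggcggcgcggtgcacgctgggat
Srsf3: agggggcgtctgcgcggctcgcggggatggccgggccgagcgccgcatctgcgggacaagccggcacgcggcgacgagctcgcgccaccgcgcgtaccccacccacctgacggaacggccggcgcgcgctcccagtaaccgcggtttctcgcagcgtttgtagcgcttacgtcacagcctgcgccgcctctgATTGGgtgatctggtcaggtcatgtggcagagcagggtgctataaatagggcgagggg
Srsf4: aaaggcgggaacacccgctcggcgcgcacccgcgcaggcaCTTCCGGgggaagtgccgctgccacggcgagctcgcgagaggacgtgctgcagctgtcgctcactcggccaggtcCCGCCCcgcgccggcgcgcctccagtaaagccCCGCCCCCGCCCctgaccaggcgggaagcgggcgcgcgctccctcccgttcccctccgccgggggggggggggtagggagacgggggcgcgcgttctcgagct
Hnrnpc: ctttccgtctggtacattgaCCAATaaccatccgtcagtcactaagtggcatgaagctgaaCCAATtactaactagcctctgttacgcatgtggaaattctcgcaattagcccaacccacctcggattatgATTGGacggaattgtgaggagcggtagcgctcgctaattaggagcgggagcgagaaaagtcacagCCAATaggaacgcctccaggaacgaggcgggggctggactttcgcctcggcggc
The Srsf2 sequence lies at chr11:116853095-116853344 on the minus strand and holds 5 GC boxes, a CCAAT box and a TGCGCA. Srrm1 (chr4:135353147-135353396, minus strand) has 3 GC boxes, a CCAAT box and a TGCGCA. In Srsf3 (chr17:29032410-29032659, plus strand) a single CCAAT box was found among the motifs marked. Srsf4 (chr4:131873387-131873636, plus strand) has 3 GC boxes in these bases and an ETS-type motif. Hnrnpc (chr14:52104022-52104271, minus strand) has 4 CCAAT boxes and no GC box. The windows of Srsf2, Srrm1, Srsf4 and Hnrnpc overlap the annotated span because the gene table also covers transcripts that start further upstream.

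Most splicing factor genes had open chromatin at an edge in all conditions, a larger share than over all protein-coding genes. An edge peak was found at 48 of 57 genes (84.2%, exact Clopper-Pearson 95% interval 72.1 to 92.5) in WT untreated, against 38.2% of all genes. After IL-4, WT had it at 37 (64.9%, 51.1 to 77.1), against 28.4% of all genes. KO untreated had 44 (77.2%, 64.2 to 87.3) against 34.8%, and KO IL-4 had 39 (68.4%, 54.8 to 80.1) against 29.0%. These intervals treat genes as independent and cover counting error only. The order of the libraries was the same over all genes and for the number of peaks. In these bulk libraries, fewer cells with a region open and less access per cell cannot be told apart. The lists were also brought to equal length by keeping, in each, as many of the highest-scoring peaks as the WT IL-4 list holds. The counts were then 43 for WT untreated, 37 for WT IL-4, 41 for KO untreated and 38 for KO IL-4, against 29.3%, 28.4%, 29.9% and 28.3% of all genes. Of the 57 genes, 32 had an edge peak in all 4 lists, 17 in 1 to 3 lists and 8 in none. Over all genes, 22.9% had one in all 4 lists.

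Where an edge peak was present, it ranked about as high as the edge peaks of other genes. The median percentile over splicing factor genes was 75.2 in WT untreated, 69.9 in KO untreated, 69.4 in KO IL-4 and 60.5 in WT IL-4. Over all genes with an edge peak it was 70.6, 67.7, 63.4 and 64.3 in the same order. The splicing factor median thus lay above that of all genes in 3 lists and below it in WT IL-4. The same held in lists of equal length, where the medians were 64.9, 68.3, 69.1 and 60.5 against 63.2, 63.4, 62.7 and 64.3. Among peaks with a score of 100 or more the sides turned in 3 lists: WT IL-4 had 69.3 against 54.6, above all genes, while WT untreated (60.7 against 62.1) and KO IL-4 (55.3 against 55.9) were below, and KO untreated had 61.2 against 58.2. With all peaks, the median width of the highest edge peak of splicing factor genes was 528 bp in WT untreated, 686 in KO untreated, 652 in KO IL-4 and 652 in WT IL-4. Over all genes with an edge peak it was 530, 614, 577 and 644 bp in the same lists.

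**Figure D1:**
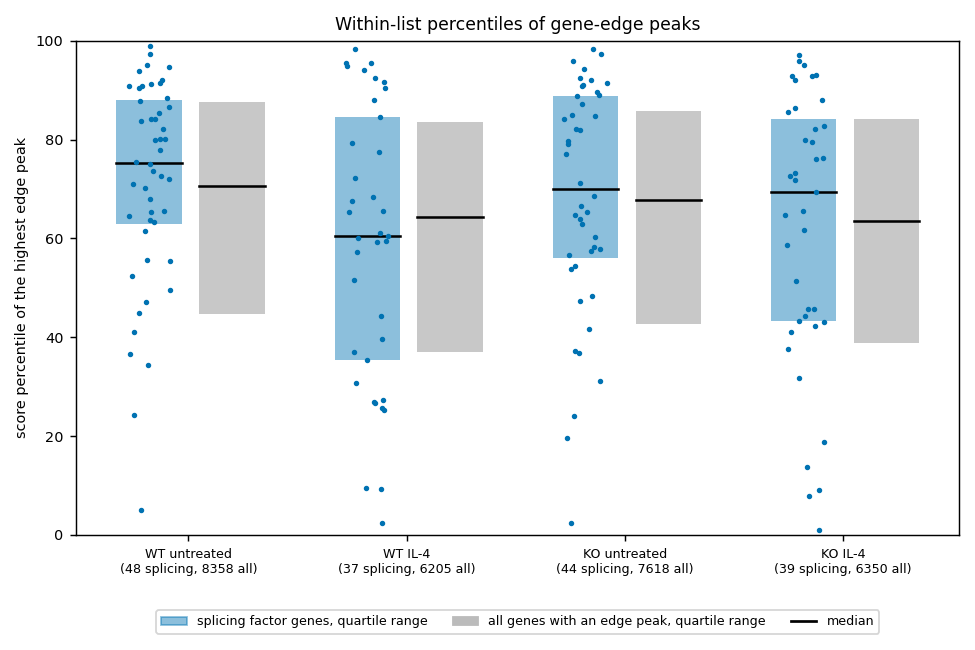
Within-list score percentile (y axis) of the highest edge peak in each library (x axis). Points are splicing factor genes, bars run from the lower to the upper quartile (blue for splicing factor genes, grey for all protein-coding genes with an edge peak) and black lines are medians. The median of splicing factor genes is 75.2 in WT untreated and 60.5 in WT IL-4, and the bars of both gene sets overlap in every library.

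Among the SR genes, 5 of 13 had an edge peak in all 4 lists, 6 in some lists and 2 in none. Srsf6, a regulator of exon inclusion, scored 204 and 159 in the untreated and IL-4 lists of WT and 228 and 133 in those of KO (percentiles 82.1, 84.6, 88.7 and 76.0); the order WT untreated, WT IL-4, KO untreated, KO IL-4 is used for every gene below. Srsf1, the founding SR protein, scored 106, 112, 123 and 68.9 (percentiles 52.3, 67.6, 64.7 and 31.7). In lists of equal length, both genes had their lowest percentile in WT untreated (68.8 and 16.7). Srsf1 had 2 edge peaks in WT untreated, the higher of them 333 bp wide. Its 1 edge peak in each other list was 801, 673 and 461 bp wide. The part of this in its percentiles was not tested. Srsf7, a splicing and mRNA export factor, scored 136, 64.7, 121 and 79.8 (percentiles 65.5, 26.9, 63.9 and 44.3), and in lists of equal length the percentile was again lower in each IL-4 list (26.9 and 41.4) than in the untreated list of its genotype (39.8 and 50.2). Srsf5 and Srsf11 had percentiles of 35.4 and 51.5 in WT IL-4, against 35.9 and 47.8 in WT untreated at equal length.

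Several SR genes with an edge peak in the other lists had none in WT IL-4. Srsf2 encodes SC35, a splicing activator that is recurrently mutated in myeloid disease. Its edge peak scored 219 in WT untreated, 236 in KO untreated and 213 after IL-4 in KO (percentiles 84.1, 89.7 and 92.0), and WT IL-4 had none. The WT untreated peak ran over chr11:116853000-116853932, 933 bp across the gene start. Srrm1, a splicing coactivator that bridges factors bound to exons, gave the same picture, with scores of 191, 196 and 181 (percentiles 80.1, 84.1 and 87.9) and no peak in WT IL-4. Srsf3, an SR protein that also acts in mRNA export, scored 190 in WT untreated but 71.2 and 78.8 in the untreated and IL-4 lists of KO (percentiles 79.9, 31.1 and 43.2). At equal length its percentiles were 64.9, 4.78 and 40.3. Srsf4, which like Srsf6 carries a long arginine/serine domain, scored 132, 127 and 81.1 in those lists (percentiles 64.4, 66.5 and 45.7). For Srsf3 and Srsf4 too, WT IL-4 was the list without a peak. In WT IL-4 the nearest peak to a span end lay 5969 bp away at Srsf2, 47215 bp at Srrm1, 51775 bp at Srsf3 and 345661 bp at Srsf4.

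A further pair of SR genes lacked the edge peak in KO IL-4 instead. Srsf10, which represses splicing when it is dephosphorylated, scored 219, 100 and 77.8 in WT untreated, WT IL-4 and KO untreated (percentiles 84.1, 61.1 and 37.3). Srsf9 scored 112, 64.9 and 90.4 in those lists (percentiles 55.6, 27.4 and 47.3). Srrm2, a scaffold of nuclear speckles, and Srsf12 had no edge peak in any list. Srrm2 had one at a RefSeq gene start inside its span in all 4 lists, with scores of 273, 135, 201 and 127, whereas Srsf12 had no peak within 10 kb in any list.

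**Figure D2:**
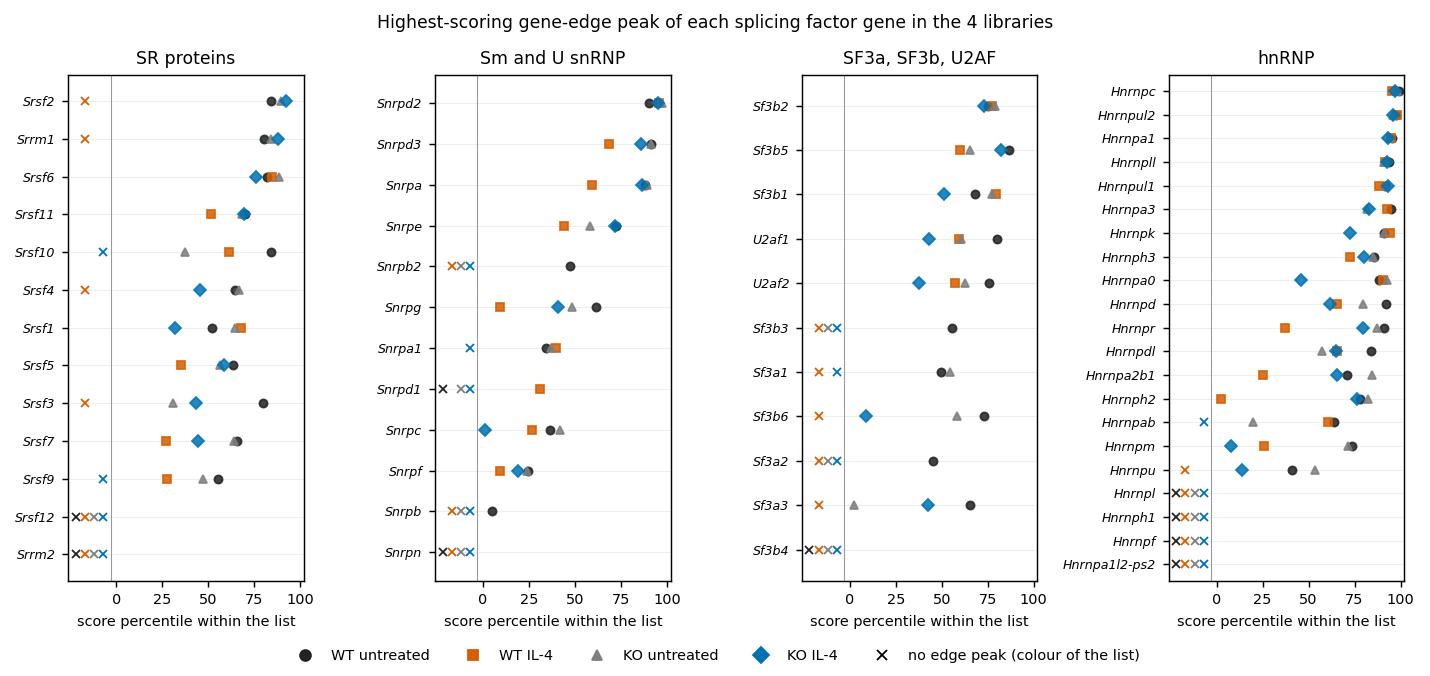
Within-list score percentile (x axis) of the highest edge peak of each splicing factor gene (rows, in 4 panels by family) in the 4 libraries, marked by symbol and colour. A cross to the left of the vertical line marks a library without an edge peak. Orange crosses, for WT IL-4, stand alone at Srsf2, Srrm1, Srsf4, Srsf3, Sf3b6, Sf3a3 and Hnrnpu.

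The Snrp genes encode the Sm proteins, which form a ring around each spliceosomal RNA, and proteins particular to U1 or U2. They spanned a wide range of percentiles, and 7 of 12 had an edge peak in all 4 lists, 4 in some lists and 1 in none. Snrpd2 and Snrpd3, both Sm proteins, were among the highest. Snrpd2 scored 279, 244, 372 and 246 (percentiles 90.5, 95.4, 97.3 and 95). Snrpd3 scored 288, 113, 254 and 169 (percentiles 91.2, 68.4, 91.5 and 85.6). Snrpf was the lowest of the genes with an edge peak in every list, at scores of 68.0, 54.3, 65.1 and 59.6 (percentiles 24.2, 9.26, 24.2 and 18.9). Snrpc, of the U1 snRNP, scored 80.9, 64.5, 83.0 and 50.5 (percentiles 36.6, 26.6, 41.7 and 1.04). Snrpg, a further Sm protein, scored 125, 54.4, 91.9 and 76.8 (percentiles 61.4, 9.43, 48.4 and 41.0). Levels near the bottom of a list are those at which presence or absence turns on small differences in score.

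Of the other Snrp genes, Snrpb and Snrpb2 had an edge peak in WT untreated alone, at scores of 54.0 and 96.0 (percentiles 5.02 and 47.1). Snrpb encodes the SmB proteins and Snrpb2 a protein of the U2 snRNP. Snrpd1, an Sm protein, had one in WT IL-4 alone, at a score of 67.2 (percentile 30.7), the single splicing factor gene with that pattern. Snrpa1, of the U2 snRNP, scored 78.4, 74.7 and 77.3 and had no edge peak in KO IL-4. Snrpn, the imprinted gene of the SmN protein, which is best known from brain, had no peak within 10 kb in any list.

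Genes of SF3a, SF3b and U2AF, which act together at the branch point and the end of the intron, had an edge peak in all 4 lists at 5 of 11. Sf3b1 encodes the subunit that clamps the branch point and is itself a frequent target of mutation in myeloid disease. It scored 142, 141, 161 and 87.9 (percentiles 67.9, 79.3, 77.1 and 51.5). At equal length its percentile was 44.0 in WT untreated and 49.0 in KO IL-4, with 79.3 and 68.3 in the remaining lists. U2af1, which reads the last bases of the intron, scored 191, 97.8, 113 and 78.8 (percentiles 80.1, 59.5, 60.4 and 43.2). U2af2, its partner on the pyrimidine tract, scored 170, 94.4, 118 and 73.6 (percentiles 75.4, 57.2, 62.8 and 37.7). At equal length the percentiles were 65.2, 59.5, 45.3 and 40.2 for U2af1 and 57.1, 57.2, 48.7 and 34.5 for U2af2, lower in both KO lists than in both WT lists. With all peaks, Sf3b2 lay within percentiles 73.2 to 79.0, and Sf3b5 between 60.1 and 86.6. At equal length the percentiles were 56.3, 77.5, 71.0 and 71.8 for Sf3b2 and 76.6, 60.1, 52.2 and 81.2 for Sf3b5.

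The remaining SF3 genes were absent from WT IL-4 or from more lists. Sf3a1 scored 100 and 101 in the untreated lists (percentiles 49.5 and 54.3) and had no edge peak in either IL-4 list, the single splicing factor gene with that pattern. Sf3a3 scored 135, 51.2 and 78.1 in WT untreated, KO untreated and KO IL-4 (percentiles 65.4, 2.48 and 42.3). Sf3b6, whose product touches the branch point adenosine, scored 160, 109 and 54.1 in those lists (percentiles 72.7, 58.2 and 9.07). Neither gene had an edge peak in WT IL-4. Sf3a2 (score 92.9, percentile 45) and Sf3b3 (112, 55.4) had one in WT untreated alone, and Sf3b4 had no peak within 10 kb in any list.

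The Hnrnp genes were the family with the largest share in all 4 lists, 15 of 21, with 2 in some lists and 4 in none, and the highest median percentile in each list. Their median percentile was 90.9, 80.2, 85.1 and 77.8, against 70.1, 51.5, 64.7 and 58.7 for SR genes. Hnrnpc, which binds uridine tracts and keeps cryptic exons out of mRNA, scored 546, 246, 432 and 293 (percentiles 98.9, 95.6, 98.3 and 97.2). Hnrnpul2 scored 437, 322, 326 and 261 (percentiles 97.4, 98.2, 95.9 and 95.9). Hnrnpa1, a general splicing silencer, scored 364, 237, 293 and 221 (percentiles 95.1, 94.9, 94.3 and 92.9). Hnrnpll, the regulator of Cd45 exon skipping in lymphocytes, scored 335, 204, 249 and 219 (percentiles 93.9, 91.7, 91.0 and 92.8). With all peaks, the lowest percentile of these 4 genes was 91.0, and at equal length it was 87.5, both for Hnrnpll in KO untreated.

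Other Hnrnp genes had a peak in all 4 lists but ranked high in some and low in others. Hnrnpa2b1, a paralog of Hnrnpa1, scored 153, 63.5, 201 and 110 (percentiles 71.1, 25.3, 84.7 and 65.5). Hnrnph2, which binds guanine runs, scored 180, 51.1, 185 and 134 (percentiles 77.8, 2.39, 82.2 and 76.3), so its WT IL-4 peak lay just above the bottom of that list. Hnrnpk, a binder of cytosine-rich RNA, stood the other way, with scores of 285, 226, 248 and 125 (percentiles 90.9, 94.1, 90.8 and 72.6), lowest in KO IL-4 at equal length too (71.2). Hnrnpa0 scored 256, 194, 264 and 81.2 (percentiles 88.4, 90.5, 92.4 and 45.8), also lowest there (43.0 at equal length). Hnrnpm, low in both IL-4 lists, scored 163, 63.8, 141 and 53.5 (percentiles 73.6, 25.7, 71.3 and 7.92).

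Hnrnpu and Hnrnpab had an edge peak in 3 lists. Hnrnpu, a nuclear scaffold protein that binds RNA and chromatin, scored 86.9, 100 and 56.7 in WT untreated, KO untreated and KO IL-4 (percentiles 41.0, 53.7 and 13.8). Its peak lay 768 to 873 bp inside the span, and it was outside the edge at 500 bp. With an edge of 2.5 kb, Hnrnpu had an edge peak in all 4 lists, since the nearest WT IL-4 peak lay 1816 bp from a span end. Hnrnpab scored 130, 99.3 and 61.9 in WT untreated, WT IL-4 and KO untreated (percentiles 63.6, 60.5 and 19.7). Hnrnpf, Hnrnph1 and Hnrnpl, all regulators of exon choice, had no edge peak by span end, but each had a peak at a RefSeq gene start inside its span in all 4 lists. Scores there were 199, 131, 193 and 60.9 at Hnrnpf, 197, 169, 255 and 175 at Hnrnph1, and 250, 79.3, 145 and 103 at Hnrnpl. At Hnrnpf the scored peak of KO IL-4 (chr6:117907586-117908041) overlapped none of the scored peaks of the other lists, so its score belongs to a different region. Hnrnpa1l2-ps2 had no peak within 10 kb in any list. With a RefSeq gene start counted as an edge too, a setting added after the data were seen, 52, 41, 48 and 43 of the 57 genes had a peak. The shares over all genes were 41.0%, 30.2%, 37.3% and 31.1%.

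With all peaks, genes of all 4 families lost the edge peak with IL-4 in wild-type macrophages, at a share near that of all genes. A gene is called lost where the starting library has an edge peak and the other has none, and gained in the reverse case. Between WT untreated and WT IL-4, 12 of 48 genes lost it (25%, 13.6 to 39.6), against 28.8% of all genes. They were Srsf2, Srsf3, Srsf4 and Srrm1, Snrpb and Snrpb2, Sf3a1, Sf3a2, Sf3a3, Sf3b3 and Sf3b6, and Hnrnpu. Snrpd1 alone gained one, of 9 that could, against 1.89% of all genes. The share lost lay below that of all genes here and above it under both other choices of peaks. In lists of equal length, 10 of 43 lost it (23.3%) against 16.8% of all genes, and 4 of 14 gained it (Snrpa1, Snrpc, Snrpd1 and Snrpf) against 5.61%. Among peaks with a score of 100 or more, 24 of 41 lost it (58.5%) against 46.0%.

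Loss over all genes depended on the rank of the peak in the starting list, and some splicing factor genes were lost from the top of it. Over all genes, 75.5% of edge peaks at percentiles up to 25 in WT untreated were lost, then 59.5% up to 50, 30.0% up to 75 and 3.51% above 75. Among splicing factor genes the counts were 1 of 2, 4 of 6, 4 of 16 and 3 of 24. The 3 genes lost from above percentile 75 were Srsf2, Srsf3 and Srrm1. In lists of equal length, 33 genes had an edge peak in both, and the percentile was lower in WT IL-4 at 17 and higher at 16. The median difference was -0.52 points, against -0.61 over all genes, with a range from -58.9 at Hnrnph2 to 50.9 at Srsf1. Srsf1 had 2 edge peaks in WT untreated and 1 in WT IL-4.

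In Slc6a8-/y macrophages the genes lost with IL-4 were mostly other ones. Between KO untreated and KO IL-4, 5 of 44 genes lost the edge peak (11.4%, 3.79 to 24.6), against 22.7% of all genes. These were Srsf9, Srsf10, Snrpa1, Sf3a1 and Hnrnpab. None of 13 gained one, against 3.22% of all genes. Equal lengths gave 5 of 41 lost (12.2%, against 17.5%) and 2 of 16 gained, Sf3a3 and Snrpf (against 5.28%). In the same bands of the KO untreated percentiles, the losses were 1 of 3, 3 of 6, 1 of 14 and 0 of 21, where 61.5%, 47.6%, 18.7% and 2.22% of all genes were lost. Of the 36 genes with an edge peak in both lists at equal length, 20 had a lower percentile with IL-4 and 16 a higher one. Their median difference was -0.54, against -0.56 over all genes, and ran from -57.2 at Hnrnpm to 35.5 at Srsf3.

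Sf3a1 was the single splicing factor gene lost with IL-4 in both genotypes, 1 of the 12 lost in WT, where 30.4% of all genes lost in WT were also lost in KO. Of the 12 lost in WT, 7 had an edge peak in KO IL-4, against 37.9% over all genes. Of the 5 lost in KO, 4 had one in WT IL-4, against 39.4%. The difference between genotypes was not tested, since each rests on 1 library per group.

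Without treatment, the genotypes differed at few splicing factor genes. Between WT untreated and KO untreated, 4 of 48 lost the edge peak (8.33%, 2.32 to 20.0), against 15.1% of all genes: Snrpb, Snrpb2, Sf3a2 and Sf3b3, all of which had one in WT untreated alone. None of 9 gained one, against 3.88% of all genes. At equal length, 5 of 43 lost it (11.6%, against 12.1%) and 3 of 14 gained it (Hnrnpu, Snrpa1 and Snrpc, against 5.78%). By percentile band of WT untreated, the losses were 1 of 2, 2 of 6, 1 of 16 and 0 of 24, where 54.1%, 32.6%, 10.7% and 0.378% of all genes were lost. At equal length, 38 genes had an edge peak in both lists, with a higher percentile in KO at 23 and a lower one at 15. The median difference was 4.07, against -0.08 over all genes, and single genes ran from -60.1 at Srsf3 to 34.6 at Srsf1.

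With IL-4 the genotypes differed in both directions. From WT IL-4 to KO IL-4, 7 of 20 genes gained the edge peak (35.0%, 15.4 to 59.2), against 7.10% of all genes. The 7 were Srsf2, Srsf3, Srsf4, Srrm1, Sf3a3, Sf3b6 and Hnrnpu, the same genes that WT IL-4 alone lacked. Of the 20, 12 had an edge peak in WT untreated, against 2409 of the 15682 genes without one in WT IL-4, so the denominators of the shares are unlike. Against that, 5 of 37 genes lost it (13.5%, 4.54 to 28.8), near the 15.6% of all genes: Srsf9, Srsf10, Snrpa1, Snrpd1 and Hnrnpab. The counts from lists of equal length were 7 of 20 gained (against 6.56%) and 6 of 37 lost (16.2%, against 16.6%). By percentile band of WT IL-4 the losses were 0 of 3, 3 of 10, 2 of 12 and 0 of 12, where 44.5%, 25.6%, 11.1% and 1.28% of all genes were lost. The 31 genes with an edge peak in both lists at equal length split into 16 higher and 15 lower in KO, with a median difference of 0.75, against -0.10 over all genes. Hnrnpa0 had the lowest, -47.5, and Hnrnph2 the highest, 72.6. The comparisons share libraries, so their gene lists are not independent of each other.

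**Figure D3:**
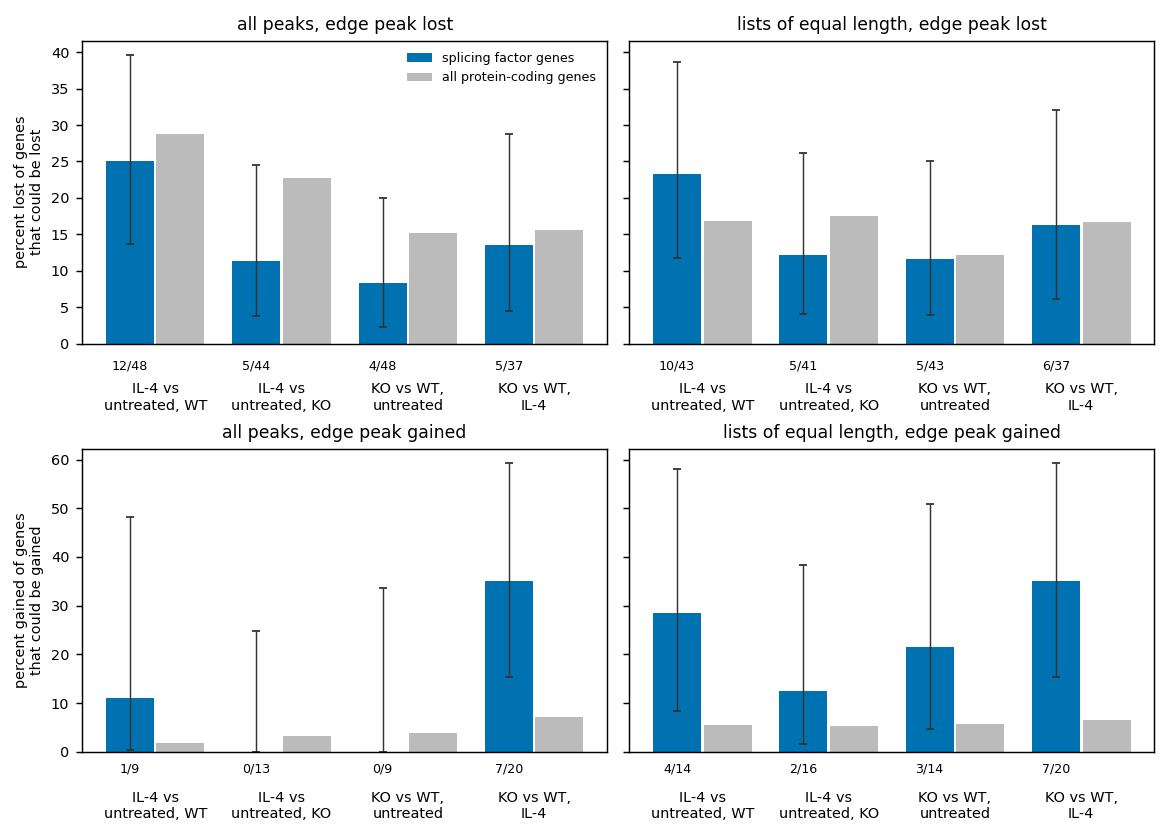
Percent of genes whose edge peak was lost (upper panels) or gained (lower panels) in the 4 comparisons, for all peaks (left) and for lists brought to equal length (right). Blue bars are splicing factor genes with exact 95% intervals for counting error, grey bars are all protein-coding genes, and the counts under the blue bars are genes called of genes that could be. With all peaks, 7 of 20 genes were gained in KO IL-4 over WT IL-4 (15.4 to 59.2), against 7.10% of all genes. Of these 20, 12 had an edge peak in WT untreated, against 2409 of all 15682 genes without one in WT IL-4, so the denominators are unlike. The 12 of 48 lost with IL-4 in WT lie near the 28.8% of all genes.

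A peak in 3 lists and none in the remaining list occurred at 11 splicing factor genes. WT IL-4 was the list without a peak at 7 of the 39 genes open in the other 3 lists, against 12.8% of all genes. KO IL-4 was that list at 4 of 36 genes (Srsf9, Srsf10, Snrpa1 and Hnrnpab), against 10.7%. KO untreated was that list at 0 of 32, against 3.03%, and WT untreated at 0 of 32, against 0.633%. For the 7 genes, no peak of WT IL-4 overlapped the edge peak of another list. At the start of these genes the peaks of the other 3 lists lay over each other. Once lists had equal length, Srsf2, Srsf3, Srsf4, Srrm1 and Sf3b6 still had the gap in WT IL-4 alone, while the WT untreated peak of Hnrnpu and the KO untreated peak of Sf3a3 were no longer among the peaks kept.

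Srsf2 and Srrm1 stood out by the rank of the peaks that WT IL-4 lacked. With all 3 other peaks at percentile 75 or more, a setting added after the data were seen, WT IL-4 lacked an edge peak at 2 of 15 splicing factor genes. Over all genes it lacked one at 7 of 1996 (0.351%), namely Srsf2, Srrm1, Mfsd11, 1190007I07Rik, Dcaf11, Nudt9 and Ptpn12. Mfsd11 is the neighbour of Srsf2 and shares its edge peak, so that pair is 1 region. KO IL-4 lacked such a peak at 0 of 10 splicing factor genes and at 9 of 1932 genes (0.466%). Since the setting was chosen with the values of Srsf2 and Srrm1 in view, these counts are a description. Peak numbers run without a gap in every list, which cannot show whether peaks were removed before they were numbered.

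**Figure D4:**
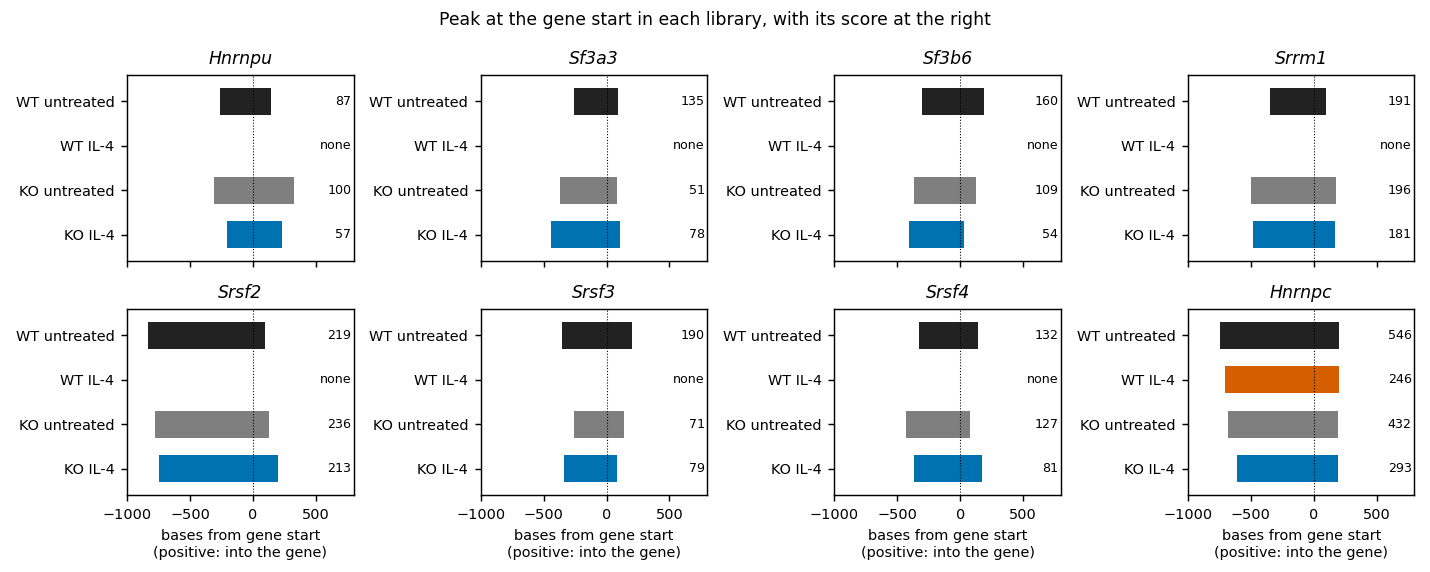
Extent of the peak at the gene start in each library (bars, colour by library) against distance from the RefSeq gene start in bases (x axis, positive into the gene), with the peak's score at the right. The 7 genes that lack a peak in WT IL-4 alone are shown with Hnrnpc, which has a score of 246 there. In each of the 7 genes the peaks of the other 3 libraries span the gene start.

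The start of 50 of the 57 genes was given by the RefSeq promoter table, and base composition was read from 300-base windows around it, 250 bases before to 50 after. Among these, 47, 36, 44 and 39 had a peak within 1 kb of the start in the usual order of libraries, against 40.7%, 30.0%, 37.2% and 31.1% of 17492 genes. The median GC content of the windows was 60.7%, against 56.7% over all genes. In the 7 genes missing from WT IL-4 alone it was 69.3% (range 59.0 to 77.7) with a median of 40 CpG sites. In 28 genes with an edge peak in all 4 lists it was 60.3% (range 48.3 to 79.7) with 25.5 sites. Over all genes missing from WT IL-4 alone the median GC content was 60.7% (607 windows), and over all genes with an edge peak in all lists 62.0% (4193 windows). GC content was 68.3% to 77.7% at Srsf2, Srsf3, Srsf4, Srrm1 and Hnrnpu, and 59.0% at both Sf3a3 and Sf3b6. Values in the upper range also occurred at genes with an edge peak in all 4 lists, such as Hnrnpa0 (79.7%) and Hnrnph3 (73.0%). The part of GC content in the missing peaks was not tested.

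Short motifs were counted on both strands of the same windows. GGGCGG was present in 35 of 50 splicing factor windows (70.0%), against 47.0% of all windows and 74.6% of windows under a peak of all 4 lists. CCAAT was present in 25 (50.0%), against 39.1% and 52.0%. CCGGAAG was in 16 (32.0%), against 12.1% and 23.7%, and TGCGCA in 15 (30.0%), against 10.2% and 19.4%. Of the 31 splicing factor windows under a peak of all 4 lists, GGGCGG was in 21 (67.7%), CCAAT in 17 (54.8%), CCGGAAG in 8 (25.8%) and TGCGCA in 10 (32.3%), to be read against those same shares. TTC and GAA with any 4 bases between them, the spacing bound by STAT6 downstream of the IL-4 receptor, were in 1 window (2%), against 6.36% of all windows and 5.03% of those under a peak of all 4 lists. None of the 7 genes missing from WT IL-4 alone held that pattern. A match describes these letters and not a bound site.

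An edge peak can belong to a neighbour as much as to the splicing factor gene. At 22 of the 49 genes with an edge peak in any list, the highest one also lay within 1 kb of the span end of another protein-coding gene. In WT untreated this held for 45.8% of splicing factor genes with an edge peak, against 30.4% of all genes. The heterochromatin protein genes Cbx5 and Cbx3 share the peak of Hnrnpa1 and Hnrnpa2b1 in every list. Other such pairs were Hnrnpc with Rpgrip1, Hnrnpk with Rmi1, Hnrnpul1 with Axl, Hnrnpll with 4933407O12Rik, Snrpd2 with Qpctl and Srsf7 with Gemin6, itself a gene of snRNP assembly. Of the 7 genes missing from WT IL-4 alone, Srsf2 shared its edge peak with another gene. No edge peak was shared by splicing factor genes with each other.

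Other genes of the spliceosome and its regulators lost edge peaks at a similar rate in both genotypes. This list held 76 genes, among them Prpf, Lsm, Snrnp, Clk and DEAD/DEAH-box helicase genes. An edge peak was found at 66, 54, 60 and 49 of them in the same order. With IL-4, 15 of 66 lost it in WT (22.7%) and 13 of 60 in KO (21.7%), against 28.8% and 22.7% of all genes. In WT the losses included Clk3, a kinase of SR proteins, Eftud2, a GTPase of the U5 snRNP, and Eif4a3, a core subunit of the exon junction complex. Aqr, Clk3, Ddx23, Dhx16, Prpf39, Sart1, Sart3 and Syf2 were lost in both genotypes. Over all genes, 30.4% of those lost in WT were also lost in KO. From WT to KO, 10 of 66 lost the edge peak without treatment (15.2%, against 15.1% of all genes) and 8 of 54 with IL-4 (14.8%, against 15.6%). Gains with IL-4 were 3 of 10 in WT (30%, against 1.89% of all genes) and 2 of 16 in KO (12.5%, against 3.22%). Without treatment, 4 of 10 gained it in KO over WT (40%, against 3.88%). With IL-4, 3 of 22 gained it in KO over WT (13.6%, against 7.10% of all genes), namely Eif4a3, Prpf3 and Snrnp35, where 7 of 20 genes of the families above did. Ddx46, Lsm7, Mbnl1, Rbfox2 and Srpk2 had an edge peak in no list.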

How the data were processed

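ATAC-seq was run on 4 libraries, 1 for each of WT untreated, WT IL-4, KO untreated and KO IL-4. Per the submitters' processing notes, the tools were Bowtie2 2.2.5, HOMER and MACS 1.4.2 and the genome build was mm10. No roles or parameters are stated there. For every library the authors deposited a list of peaks, each with coordinates and a score. The score runs from 50.0 to 3100 in the 4 lists with no unit stated, so it was used only for percentiles within a list. Read depth is not stated either. The precision of presence or absence is therefore unknown, since the number, width and score of peaks depend on depth.

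Gene spans came from a RefSeq table of GRCm38.p6 (coordinates as in mm10), which gives no strand. Gene starts, strands and promoter sequences came from the RefSeq promoter table, which matched 50 of 57 genes. An edge peak has any base within 1 kb of a span end, and the highest-scoring one gives the percentile (ties at their mean rank). Genes lost or gained were counted per comparison for all peaks and for the highest peaks of each list, as many as the shortest list (WT IL-4) holds. Intervals are exact Clopper-Pearson 95% intervals. No test was run, because no group had a second library.

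Named are all genes lost, gained or without an edge peak, the 5 highest and 5 lowest by mean percentile among those in all 4 lists, and a set of well-known factors. Further genes are examples chosen after their values were seen. The genes, the list of 76 other splicing genes and the marker lists were chosen with earlier results of these data known. Alternatives were lists of equal length, a score of 100 or more, edges of 500 bp and 2.5 kb, the peak middle, no overlapping peak in the other list, and the gene start only. Added after the data were seen were the span end or gene start, the percentile minimum of 75, and percentile differences in lists of equal length. Scripts ran under Python 3.11.15 with pandas 2.3.3, NumPy 2.4.6, Matplotlib 3.10.9 and SciPy 1.17.1. The peak-to-gene code was tested on simulated data.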

Additional observations from a re-analysis of the deposited data

Results flagged for a closer look

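The net change in splicing factor genes with an edge peak ran in opposite directions between the genotypes under the 2 treatments. Against WT, KO had a net change of -4 genes without treatment and 2 genes with IL-4. Over all genes the direction also turned, with 1265 lost and 525 gained without treatment and 969 lost and 1114 gained with IL-4. In lists brought to equal length the values for splicing factor genes were -2 and 1. Over all genes, 779 were then lost and 894 gained without treatment, and 1033 lost and 1028 gained with IL-4. The difference was not tested, since each value rests on 1 library per group. Also at equal length, 1 gene (Sf3a3) was lost in KO against WT without treatment and gained with IL-4, and 2 genes (Snrpa1 and Snrpc) did the reverse. Likewise 1 gene (Sf3a3) was lost with IL-4 in WT and gained in KO, and 2 genes (Snrpa1 and Snrpc) were gained in WT and lost in KO. Of all 21887 genes, 170 (0.777%) had the pattern of Sf3a3 over the 4 lists and 176 (0.804%) that of Snrpa1 and Snrpc. These differences were not tested either. With all peaks none of the 3 genes changed in opposite directions, because the untreated lists then held the low-scoring peaks of Sf3a3 (score 51.2 in KO untreated) and of Snrpa1 and Snrpc (78.4 and 80.9 in WT untreated).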

How the results depend on the processing

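The place of splicing factor genes relative to all genes turned with the peaks used. The share lost with IL-4 in WT was below that of all genes with all peaks (25%, against 28.8%), above it in lists of equal length (23.3%, against 16.8%) and at a score of 100 or more (58.5%, against 46.0%). At that score the median percentile was above that of all genes in WT IL-4 (69.3, against 54.6) and below it in WT untreated (60.7, against 62.1) and KO IL-4 (55.3, against 55.9), the opposite of all peaks. Restriction to a score of 100 or more moved most values: genes with an edge peak fell to 17 in WT IL-4 and 23 in KO IL-4, against 15.1% and 15.8% of all genes. At that score, genes lost with IL-4 were 24 of 41 in WT and 12 of 35 in KO (34.3%, against 35.2% of all genes). Lost in KO against WT were 7 of 41 without treatment (17.1%, against 22.9%) and 3 of 17 with IL-4 (17.6%, against 20.7%). Gained were 0 of 16 with IL-4 in WT (against 0.559% of all genes) and 1 of 16 in KO against WT without treatment (against 2.47%). Scores in the IL-4 lists are lower, so a fixed score removes more of their peaks. The median percentile in WT untreated was 64.9 in lists of equal length and 60.7 at a score of 100 or more, both within shorter lists. In lists of equal length, genes gained were 4 with IL-4 in WT, 2 with IL-4 in KO and 3 in KO against WT without treatment. Genes gained with IL-4 in WT were 0 by gene start only (against 1.76% of all genes), which leaves out Snrpd1. Genes gained with IL-4 in KO were 1 with an edge of 500 bp (Hnrnpul1, against 2.87%) and 2 by the peak middle (Hnrnpul1 and Srsf1, against 3.08%). Requiring no overlapping peak in the other list left all 8 counts of lost and gained genes the same, and edges of 2.5 kb moved none of the 16 summary values (a count by over 1.5 times, a median beyond its 95% interval). No paired analysis was possible because each group has 1 library and no test was run. Leaving out a replicate was not possible for the same reason. Without read depth, the absence of a peak cannot be told from a peak under the caller's threshold.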
